A study of Mus musculus with 42 samples.

Results

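The 56 genes described here are mouse odorant receptor (OR) genes of a large cluster on chromosome 19. They were chosen by name alone, as every gene named with Olfr and a whole number, from Olfr1417 to Olfr1505, in all 9 deposited tables, with Olfr1471, Olfr1474 and names ending in -ps left out. They make up 56 of the 1088 intact ORs that the tables list. The rule uses no measured value, but it was set with earlier results of these data known.

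ORs are the receptors through which the nose detects odorants. Each mature olfactory sensory neuron (OSN) expresses a single allele of a single OR gene, OR genes lie in clusters of related copies, and the neurons that choose a given OR are restricted to a zone of the olfactory epithelium along its dorsal to ventral axis. When an OSN is active, its ribosomal protein S6 becomes phosphorylated, so immunoprecipitation of phosphorylated S6 followed by RNA sequencing (pS6-IP-Seq) enriches the OR mRNAs of the neurons that an odorant activated.

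The study exposed C57BL/6 mice, aged p20 to p22, for 1 h to acetophenone (ACT) or to the thiazoline TMT, a component of fox odor, at starting concentrations of 0.01%, 0.1%, 1% or 100% (v/v), and other mice to no odor. Each group held 3 mice and 3 pS6-IP-Seq libraries, and the replicate number stands for the litter from which the odor mice and the no odor mice came. The 0.01% and 0.1% groups of an odorant shared 3 no odor mice, and its 1% and 100% groups shared another 3, so that 24 odor libraries were set against 12 no odor libraries. The concentration is that of the liquid spotted beside the mouse, not of the vapor that reached the nose. A further 3 dorsal and 3 ventral RNA-Seq libraries of dissected olfactory epithelium gave the zone of each OR. The labels give the same strain for all mice and no allele or treatment other than the odor.

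The pS6-IP-Seq libraries held 37012 to 128805 OR counts each and the zone libraries 155319 to 242123. The 56 members, 5.15% of the OR genes, took 3.56% to 6.19% of the OR counts in pS6-IP-Seq libraries. The tables list no gene other than ORs, so markers of OSNs, of supporting cells and of neuronal activity were not analysed here. In the following, a normalised count is a count scaled to 100000 OR counts per library after TMM correction, a fold change is that of edgeR's quasi-likelihood test with the litter as a block, and an OR is called at an adjusted p below 0.05 over all ORs in the table.

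One library stood apart. The 0.01% ACT library of litter 1 held 47300 normalised counts in the 126 ORs that 100% TMT enriched in other mice, against 13900 and 13700 in the other 0.01% ACT libraries and 12500 to 14100 in their no odor littermates. The 1% ACT mice belonged to another experiment with its own no odor mice, and litter numbers need not match between experiments. There the 1% ACT library of litter 1 had 30400 in the same ORs, against 13100 and 16600 in litters 2 and 3. Members of the cluster went the same way: Olfr1477 had 576 normalised counts in the 0.01% ACT library of litter 1, and 43.4 and 42.3 in litters 2 and 3. Among the 6 libraries of that comparison it was the highest for 17 of 56 members (30.4%) and for 25.5% of all ORs. The members named at 0.01% and 1% ACT are therefore given with and without litter 1 of their own experiment. The part of the 0.01% ACT library of litter 1 in other results was not tested.

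Of the 56 members, 55 were placed in GENCODE M21 (GRCm38), all on chromosome 19, between positions 11826803 and 13921866. Of these, 30 lie on the plus strand and 25 on the minus strand. Olfr1433 had no entry under that name there (RefSeq gives the name as a synonym of Olfr1434) and has no length, position or protein group in what follows. Single linkage at 60% protein identity sorted the 55 placed members into 11 groups. The largest group held 28 members, from Olfr1442 to Olfr1489 along the chromosome, and the next held the 6 members Olfr1423 to Olfr1428. The remaining groups had 4, 4, 3, 3, 2 and 2 members, and 3 members stood alone.

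Near copies are the reason why some values carry more doubt than others. At least 1 stretch of 50 bases is shared with another OR in 41 of the 55 placed members, and over 10% of such stretches are shared in 18. Reads from shared stretches were divided between genes by estimation. Olfr1477 (chr19:13500546-13506192, plus strand) and Olfr1484 (chr19:13583511-13588832, plus strand) encode proteins with 94.6% identity, and their coding sequences differ at 33 of 945 bases, with a longest identical run of 128 bases. Olfr1487, another copy, differs from Olfr1477 at 50 bases. The stretch of coding bases 568 to 627 holds the most differences between Olfr1477 and Olfr1484 and is shown to let the copies be compared where their coding sequences differ most. Capitals mark bases that differ from Olfr1477 and, in the line of Olfr1477, bases that differ from Olfr1484.
Olfr1477: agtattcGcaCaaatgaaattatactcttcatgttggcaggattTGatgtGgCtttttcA
Olfr1484: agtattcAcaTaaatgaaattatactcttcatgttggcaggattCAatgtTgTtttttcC
Olfr1487: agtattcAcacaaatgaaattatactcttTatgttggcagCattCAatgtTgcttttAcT

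Olfr1466 (chr19:13338862-13343572) and Olfr1463 (chr19:13231328-13236400), both on the plus strand, are a more distant pair. Their proteins share 87.1% of residues and their coding sequences differ at 101 of 930 bases, so only 0.6% and 0.8% of their 50-base stretches are shared with another OR. Coding bases 253 to 312, shown for comparison with the closer pair, differ between them at 16 of 60 bases, which are in capitals.
Olfr1466: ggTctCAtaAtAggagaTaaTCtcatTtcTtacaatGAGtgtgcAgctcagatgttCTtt
Olfr1463: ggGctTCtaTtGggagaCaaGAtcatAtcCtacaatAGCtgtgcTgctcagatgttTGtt

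Without odor, the members spanned a wide range of levels in pS6-IP-Seq. Per kb of exon, which allows levels to be compared between genes, Olfr1427 was the highest, with a median of 277 normalised counts per kb over the 12 no odor libraries and a range of 168 to 386. Olfr1463 followed with a median of 90.9 (71.4 to 146) and Olfr1428 with 81.4 (57.6 to 113). The ranges of Olfr1463 and Olfr1428 overlapped, and that of Olfr1427 lay above both. Of the 55 members with a length, 22 lay above the median of all ORs, 14.2 normalised counts per kb, and the median of the members was 11.9. At the low end, Olfr1436, Olfr1453 and Olfr1475 had a median of 0 and counts in only some of the no odor libraries, but no member lacked counts in every one of them. In 18 members the median raw count per no odor library was below 10, and at this depth only large differences could be detected for them. In these bulk samples, fewer neurons that chose an OR, less OR mRNA per neuron and less capture through phosphorylated S6 cannot be told apart.

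**Figure D1:**
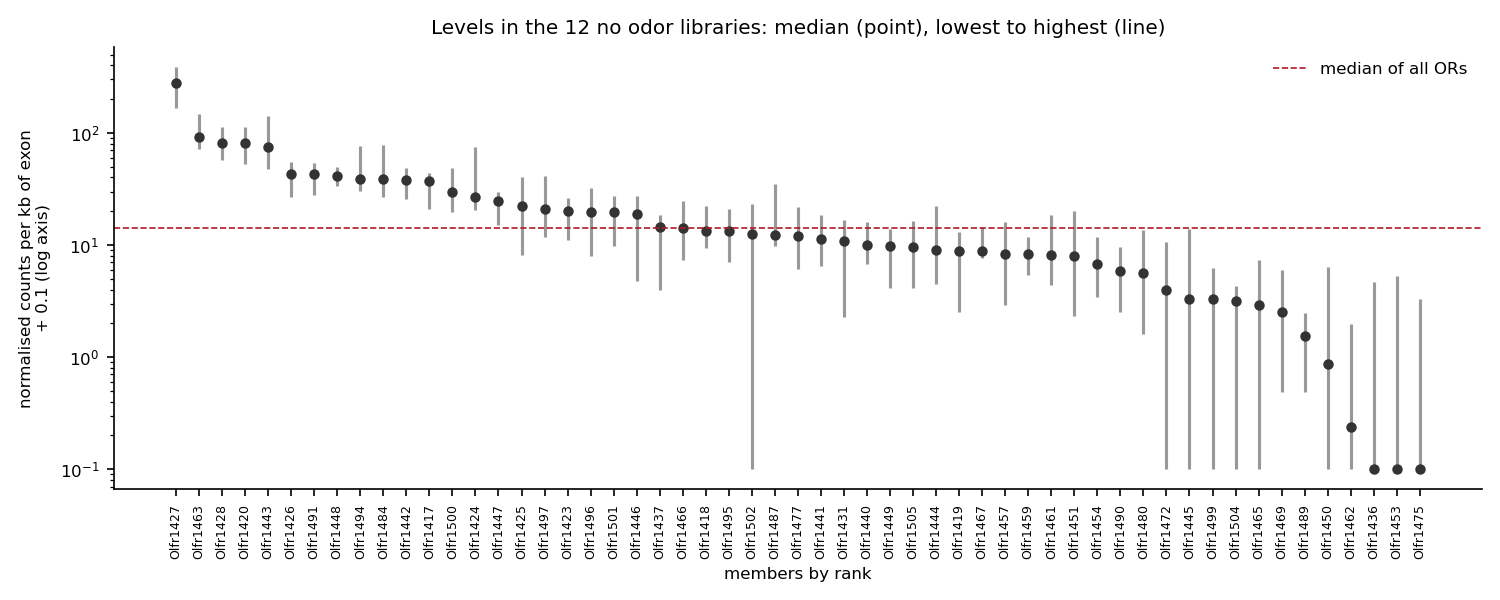
Level of each placed member without odor: the y axis gives normalised counts per kb of exon plus 0.1 on a log axis, points are medians over the 12 no odor libraries, lines run from the lowest to the highest library, and the dashed line is the median of all ORs. Olfr1427 stands above all other members, and the range of the lowest members reaches 0.

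Undiluted TMT gave the largest number of called members. At 100% TMT, 8 of 56 members (14.3%) were higher than in no odor mice and none was lower, beside 11.6% of all ORs that were higher and 3.31% that were lower. The share of members called higher was thus near that of all ORs. The median log2 fold change was 0.19 over the members and -0.09 over all ORs. The 8 members were Olfr1477, Olfr1451, Olfr1466, Olfr1463, Olfr1457, Olfr1449, Olfr1426 and Olfr1469. All but Olfr1426 belong to the protein group of 28 members, in which 7 were called. At an unadjusted p below 0.05, 14 members (25%) were higher and 0 lower with odor, beside 14.2% of all ORs higher and 8.92% lower.

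Olfr1477 had 231, 411 and 411 normalised counts in 100% TMT mice, against 47.1, 45.2 and 58.3 in no odor mice. The groups did not overlap, and the log2 fold change was 2.71 ± 0.30 (SE, n = 3 mice per group), with an adjusted p of 5.15e-17 (edgeR). Olfr1466 had 76.3, 143 and 210 normalised counts with 100% TMT and 19.7, 21.5 and 29.2 with no odor, a log2 fold change of 2.46 ± 0.37 (adjusted p 1.4e-09). For Olfr1463 the counts were 613, 942 and 1133 with 100% TMT and 166, 207 and 338 with no odor, a log2 fold change of 1.89 ± 0.29 (adjusted p 1.96e-09). In each of these members, every 100% TMT mouse lay above every no odor mouse, and litter 1 was the lowest of the 100% TMT mice.

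Olfr1451 reached 88.7, 180 and 186 normalised counts in 100% TMT mice, against 15.2, 23.7 and 34.0 in no odor mice (log2 fold change 2.58 ± 0.36, adjusted p 6.01e-11). Olfr1451 shared no stretch of 50 bases with another OR. Olfr1457 had 70.1, 108 and 122 with 100% TMT and 12.1, 19.4 and 12.2 with no odor (2.69 ± 0.46, adjusted p 2.31e-07). Olfr1449 had 53.6, 99.6 and 80.3 with 100% TMT and 15.2, 17.2 and 9.72 with no odor (2.36 ± 0.50, adjusted p 4.18e-05). The groups did not overlap in these members either, although the raw counts of Olfr1449 in no odor mice were only 10, 8 and 4.

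Olfr1426, the called member outside the large protein group, moved least. It had 237, 359 and 427 normalised counts in 100% TMT mice and 111, 164 and 141 in no odor mice, a log2 fold change of 1.23 ± 0.27 (adjusted p 0.000121). Olfr1469 rested on few reads: its raw counts were 9, 17 and 37 with 100% TMT and 5, 1 and 10 with no odor, and its normalised counts (18.6, 35.3 and 67.5, against 7.59, 2.15 and 24.3) overlapped between groups. Its log2 fold change was 1.84 ± 0.59 with an adjusted p of 0.016, and the call was lost without litter 2 (1.34, adjusted p 0.218), without litter 3 (2.27, adjusted p 0.128) and with DESeq2 (1.98, adjusted p 0.0858).

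**Figure D2:**
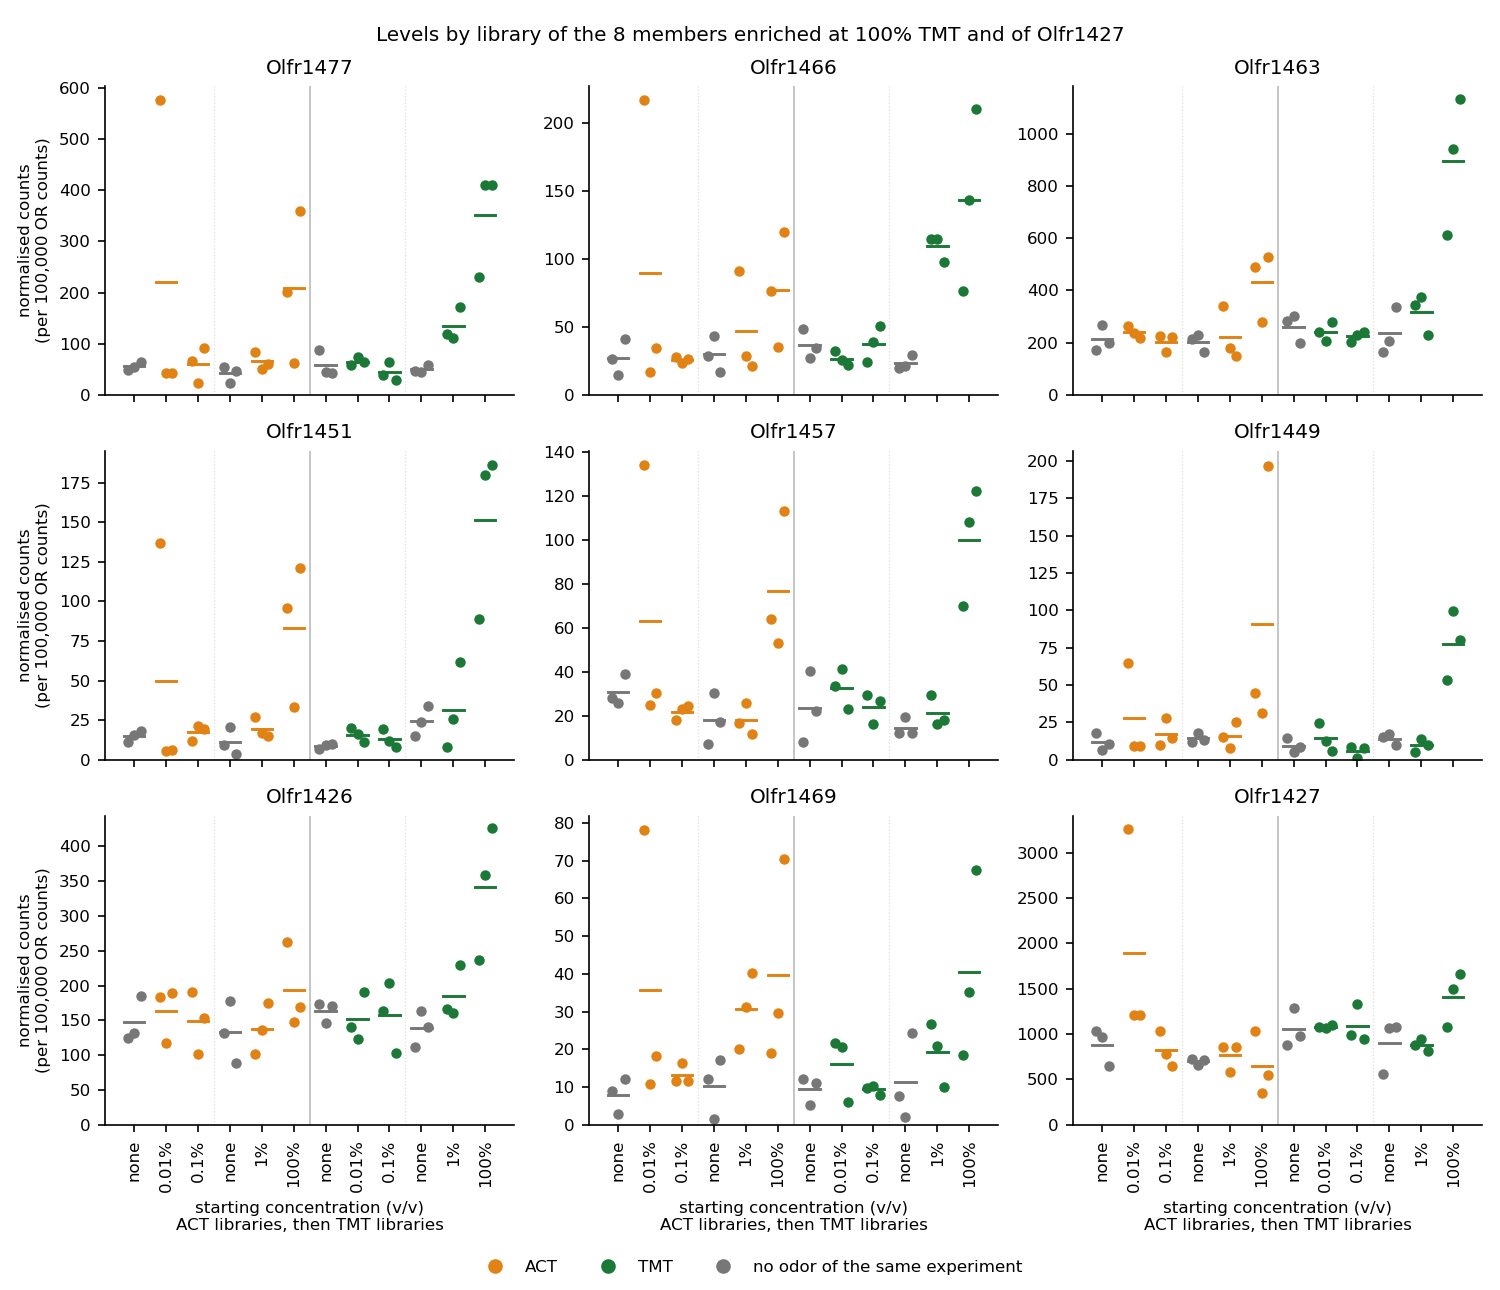
Normalised counts per 100000 OR counts (y axis, linear from 0) in each of the 36 pS6-IP-Seq libraries for the 8 members enriched at 100% TMT and for Olfr1427. Points are libraries, bars are group means, the x axis gives the starting concentration for ACT and then TMT, with the no odor mice of the 0.01% and 0.1% experiment and of the 1% and 100% experiment before their groups. The 100% TMT points lie above the no odor points of that experiment except in Olfr1469, and the 0.01% ACT point of litter 1 stands far above litters 2 and 3 in every member shown except Olfr1463 and Olfr1426.

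At 1% TMT only 2 of the 56 members (3.57%) were called higher and none lower, beside 4.69% of all ORs higher and 0.184% lower. Olfr1466 had 115, 115 and 97.7 normalised counts in 1% TMT mice and 19.7, 21.5 and 29.2 in no odor mice, a log2 fold change of 2.19 ± 0.37 (adjusted p 2.09e-07, n = 3 mice per group, edgeR). Olfr1477 had 120, 111 and 172, against 47.1, 45.2 and 58.3, a log2 fold change of 1.36 ± 0.32 (adjusted p 0.000597). In both members all 3 odor mice were above all 3 no odor mice. The other members called at 100% TMT overlapped with no odor mice at 1%: Olfr1449 had 5.35, 13.9 and 9.97 normalised counts with 1% TMT (log2 fold change -0.56 ± 0.76, adjusted p 0.952) and Olfr1463 had 345, 375 and 231 (0.42 ± 0.24, adjusted p 0.656).

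The direct contrast of 100% with 1% TMT, which compares the odor mice with each other, called 7 members higher at 100% and none higher at 1%. These were 12.5% of the members, beside 6.99% of all ORs higher at 100% and 1.75% higher at 1%. The log2 differences were 2.99 ± 0.50 for Olfr1449, 2.42 ± 0.36 for Olfr1451, 2.34 ± 0.42 for Olfr1457, 1.50 ± 0.27 for Olfr1463 and 1.44 ± 0.27 for Olfr1477, all with adjusted p at or below 3.44e-06. Olfr1444 (1.85 ± 0.48, adjusted p 0.0025) and Olfr1426 (0.93 ± 0.26, adjusted p 0.00667) were the others. Olfr1466 was not among them: its level at 100% TMT exceeded that at 1% by 0.38 on the log2 scale, with a 95% interval of -0.20 to 0.96. Olfr1466 was thus already high at 1%, whereas Olfr1477 was higher at 1% than without odor and higher again at 100%.

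At the lower TMT concentrations no member was called in either direction by edgeR's quasi-likelihood test, by its likelihood ratio test or by DESeq2. At 0.1% TMT, however, DESeq2 gave an adjusted p to only 13 of the 56 members and to 303 ORs. The other members could not be called by it there. At 0.1% TMT, 1.38% of all ORs were called higher and 0.643% lower. There 2 of 56 members had an unadjusted p below 0.05, beside 78 of 1088 ORs. The member with the smallest p was Olfr1433. It had 23.9, 38.6 and 20.4 normalised counts in 0.1% TMT mice and 9.39, 10.5 and 5.58 in no odor mice (log2 fold change 1.69 ± 0.59, adjusted p 0.161). At 0.01% TMT, 0.368% of all ORs were called higher and 0.0919% lower. There 1 member, Olfr1484, had an unadjusted p below 0.05, beside 56 of 1088 ORs. It had 106, 89.0 and 195 normalised counts with 0.01% TMT and 145, 149 and 279 with no odor (log2 fold change -0.58 ± 0.24, adjusted p 0.842), with overlapping groups.

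For ACT, no member passed the test at any concentration. At 100% ACT the quasi-likelihood test called 0% of all ORs, although 155 ORs had an unadjusted p below 0.05. Of these ORs, 114 (10.5%) were higher and 41 (3.77%) lower with odor. Among the members, 11 (19.6%) were higher and 0 lower. The smallest p belonged to Olfr1477, with 202, 63.0 and 359 normalised counts in 100% ACT mice and 55.4, 24.1 and 47.5 in no odor mice (log2 fold change 2.07 ± 0.40, adjusted p 0.0508). Olfr1451 had 95.7, 33.5 and 121 with 100% ACT and 9.63, 20.9 and 3.80 with no odor (2.67 ± 0.66, adjusted p 0.0964). Neither member overlapped between groups, and in both the litter 2 mouse was the lowest of the 100% ACT mice. Olfr1449 (2.22 ± 0.57) and Olfr1457 (2.02 ± 0.52) had the next smallest p among members, both with an adjusted p of 0.0993.

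The count at 100% ACT depended on the test and on the libraries. edgeR's likelihood ratio test called 5 members higher (8.93%), Olfr1449, Olfr1451, Olfr1457, Olfr1469 and Olfr1477, beside 3.49% of all ORs. DESeq2 called 1 member, Olfr1477, of the 22 to which it gave an adjusted p (4.55%), beside 3.69% of 488 ORs. Without litter 1 the quasi-likelihood test called 8 members (14.3%), beside 7.54% of all ORs, without litter 2 it called 4 (7.14%), beside 1.38%, and without litter 3 it called 0, beside 0.368%. The sum over the 126 ORs that 100% TMT enriched was 28800, 15900 and 26300 normalised counts in the 100% ACT mice, against 12600, 12200 and 13800 in their no odor mice, so litter 2 was again the lowest.

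The response to ACT and the response to TMT were compared directly, each against its own no odor mice. At 100% no member passed the test, by edgeR's quasi-likelihood test, its likelihood ratio test or DESeq2. An unadjusted p below 0.05 was found in 2 of 56 members, beside 115 of 1088 ORs. At the adjusted threshold the background was 0.0919% of all ORs with a higher ACT response and 0.0919% with a higher TMT response. Over all 56 members the median of the ACT response minus the TMT response was -0.09 on the log2 scale, and over all ORs 0.02. Over the 8 members called at 100% TMT, it ran between -1.22 for Olfr1466 (95% interval -2.63 to 0.18) and 0.14 for Olfr1469 (-1.69 to 1.96). These 8 were chosen by their TMT response in the same libraries, which by itself moves the difference toward TMT. For Olfr1477 it was -0.63 (-1.64 to 0.39) and for Olfr1451 0.06 (-1.29 to 1.41). These intervals leave room for differences of more than 2-fold. At 1%, too, no member passed by any of these tests. The quasi-likelihood test called 0% of all ORs with a higher ACT response and 0.184% with a higher TMT response. There 2 of 56 members had an unadjusted p below 0.05, beside 54 of 1088 ORs.

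The contrast of 100% with 1% ACT called no member by the quasi-likelihood test, beside 0.735% of all ORs higher at 100% and 0% higher at 1%. At an unadjusted p below 0.05, 11 members (19.6%) were higher at 100% and 2 (3.57%) higher at 1%, beside 11.4% and 2.94% of all ORs. The likelihood ratio test called 5 members higher at 100% (8.93%), beside 4.6% of all ORs, and DESeq2 called 4 of the 43 with an adjusted p (9.3%), beside 3.47% of 806 ORs, so this count also depended on the test.

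At 1% ACT, 1.38% of all ORs were called higher and 0.276% lower, but 0 members by the quasi-likelihood test, the likelihood ratio test or DESeq2. Olfr1467 came closest, with 32, 93.6 and 160 normalised counts in 1% ACT mice and 28.9, 53.0 and 39.9 in no odor mice (log2 fold change 1.08 ± 0.35, adjusted p 0.0927). The odor mouse of litter 1 was close to its no odor littermate, and without litter 1 the log2 fold change was 1.38 (adjusted p 0.016). Olfr1469 was the other member with an unadjusted p below 0.05 (1.71 ± 0.61, adjusted p 0.19, and 2.14 ± 0.70, adjusted p 0.0949, without litter 1). These were 2 of 56 members, beside 80 of 1088 ORs with an unadjusted p below 0.05 at 1% ACT. At 0.1% ACT, where 0.643% of all ORs were called higher and 0% lower, no member was called by these 3 tests. There 2 of 56 members had an unadjusted p below 0.05, beside 38 of 1088 ORs. Olfr1484 had the smallest p of these 2 members. It had 137, 75.2 and 73.3 normalised counts in 0.1% ACT mice and 195, 115 and 161 in no odor mice (log2 fold change -0.73 ± 0.24, adjusted p 0.812).

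Olfr1427, the member with the highest level per kb in the no odor pS6-IP-Seq libraries, had its highest value in the library that stood apart. It had 3260, 1207 and 1208 normalised counts in 0.01% ACT mice and 1036, 972 and 642 in no odor mice. Its log2 fold change was 0.96 ± 0.35 with an unadjusted p of 0.0295 and an adjusted p of 1. Without litter 1 it was 0.61 ± 0.24 (unadjusted p 0.0148, adjusted p 0.776). At 0.01% ACT the quasi-likelihood test called no OR (0% higher and 0% lower). Without litter 1 it called 0.368% of all ORs higher and no member. The likelihood ratio test called 0.184% of all ORs higher and DESeq2 0.187% of 1069, with no member among them. An unadjusted p below 0.05 was found in 2 of 56 members, beside 28 of 1088 ORs. Olfr1469, the other of 2 members with an unadjusted p below 0.05, had 78.1, 10.8 and 18.1 with 0.01% ACT and 8.90, 2.89 and 12 with no odor, and its log2 fold change was 1.88 ± 0.65 with litter 1 and 1.14 ± 0.93 without it (adjusted p 1 and 0.99).

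Olfr1427 was not called in any other odor comparison. At 0.1% and 1% ACT its log2 fold changes were -0.08 ± 0.24 and 0.10 ± 0.30 (0.04 ± 0.32 at 1% without litter 1), and at 0.01%, 0.1% and 1% TMT they were 0.05 ± 0.28, 0.06 ± 0.28 and -0.02 ± 0.24. At 100% ACT it had 1038, 353 and 547 normalised counts, against 727, 657 and 711 with no odor (-0.28 ± 0.38, adjusted p 0.803). At 100% TMT it had 1073, 1493 and 1659, against 562, 1065 and 1072 (0.64 ± 0.29, adjusted p 0.141). There every odor mouse lay above every no odor mouse, if only just, and the threshold was not reached, although it was with DESeq2 (0.66, adjusted p 0.0241).

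The zone comparison asked where in the epithelium each member was expressed. Of the 56 members, 12 (21.4%) were called dorsal and 27 (48.2%) ventral, beside 37.4% of 1087 listed ORs called dorsal and 37.2% called ventral. The median log2 fold change of dorsal over ventral was -1.36 over the members and -0.67 over all ORs. The members took 2.31%, 3.08% and 2.01% of the OR counts in the dorsal libraries and 5.56%, 5.05% and 5.46% in the ventral libraries, and the groups did not overlap. Dorsal library 2 stood between the other dorsal libraries and the ventral ones for many ventral members. Among them were Olfr1427, Olfr1417, Olfr1423, Olfr1426 and Olfr1489, but not Olfr1443. For the dorsal members Olfr1500, Olfr1451 and Olfr1444 it was the lowest dorsal library. Without replicate 2 the calls were 13 dorsal and 28 ventral, close to the 12 and 27 with all libraries. These counts are not set against all ORs here. Without replicate 1 or without replicate 3, 8 dorsal (14.3%) and 9 ventral members (16.1%) were called in each case. Beside them, 31.3% of all ORs were dorsal and 18.9% ventral without replicate 1, and 32.5% and 18.5% without replicate 3. The members' share of ventral calls was thus above that of all ORs with all libraries, and not above it without replicate 1 or without replicate 3. Both of these fits kept dorsal library 2, and without replicate 2 the shares were not compared.

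The most dorsal members were Olfr1500, Olfr1451, Olfr1499, Olfr1497 and Olfr1444. Olfr1500 had 306, 249 and 494 normalised counts in the dorsal libraries and 20.4, 25.8 and 33.3 in the ventral ones (log2 fold change 3.69 ± 0.59, adjusted p 0.000162, n = 3 libraries per group, edgeR). Olfr1451, which 100% TMT enriched, had 97.5, 69.8 and 121 dorsally and 6.31, 6.45 and 11.1 ventrally (3.60 ± 0.61, adjusted p 0.000218). Olfr1444 had 148, 87.9 and 167 dorsally and 8.74, 13.8 and 15.1 ventrally (3.39 ± 0.61, adjusted p 0.00029). Dorsal and ventral libraries were far apart in each of these. Olfr1499 (3.56 ± 0.60) and Olfr1497 (3.40 ± 0.62) differed by a like amount.

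The most ventral members were Olfr1441, Olfr1442, Olfr1443, Olfr1417 and Olfr1427. Olfr1442 had 3.03, 6.86 and 4.74 normalised counts dorsally and 135, 141 and 135 ventrally (-4.85 ± 0.65, adjusted p 0.000152). Olfr1443 had 1.52, 6.86 and 14.9 dorsally and 177, 226 and 133 ventrally (-4.83 ± 0.81, adjusted p 0.000224). Olfr1427 had 20.7, 101 and 16.9 dorsally and 431, 336 and 338 ventrally (-3.49 ± 0.72, adjusted p 0.000841), and Olfr1417 differed by a like amount (-3.53 ± 0.81, adjusted p 0.00178). Olfr1441 had only 2 dorsal reads, all in library 2, against 96 ventral reads, so that the ventral level was 38.2 times the dorsal one with an exact 95% counting interval of 10.3 to 320.

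**Figure D3:**
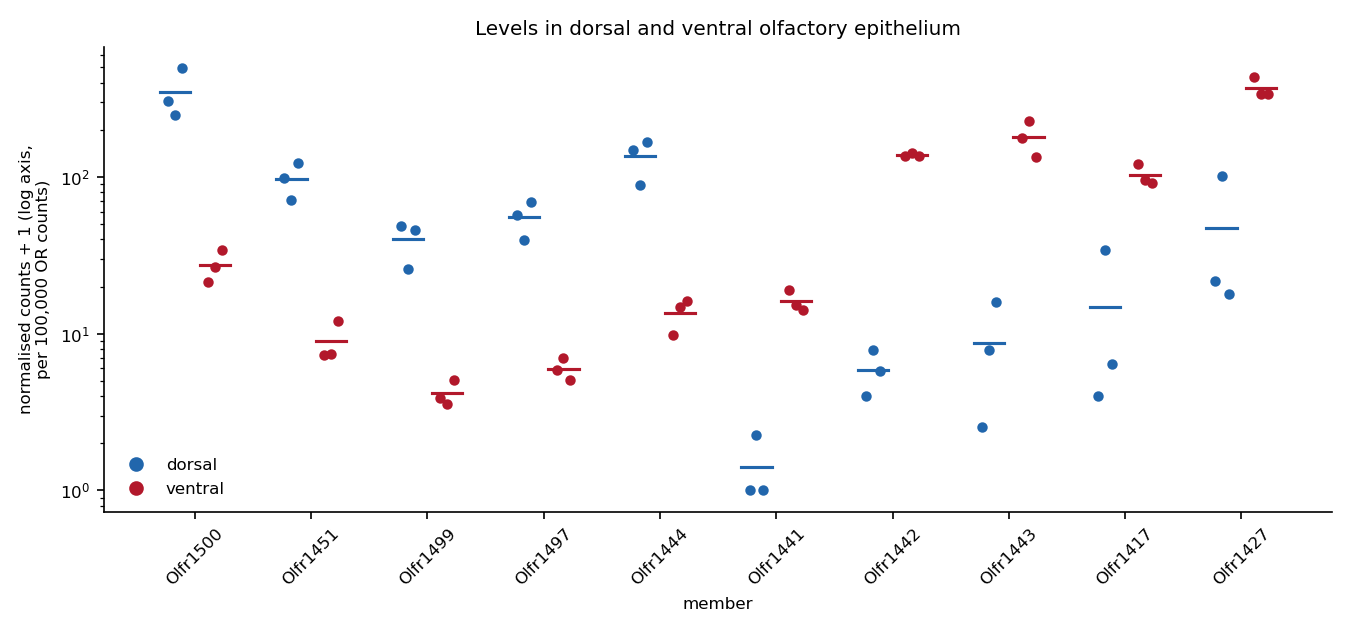
Normalised counts plus 1 (log y axis) in 3 dorsal (blue, left) and 3 ventral (red, right) libraries for the 5 most dorsal and 5 most ventral members. Points are libraries and bars are group means; the points of the groups do not overlap in any of the 10 members.

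With all libraries, zone calls ran in blocks along the chromosome. The first 17 placed members, Olfr1417 to Olfr1443, held 15 ventral calls, 2 members that were not called and no dorsal call. From Olfr1444 on, the 38 placed members held 12 dorsal and 11 ventral calls and 15 members that were not called. Over all ORs, 37.4% were called dorsal and 37.2% ventral. Along the cluster, the 38 placed members with a call formed 8 runs of like zone. The boundary between Olfr1443 and Olfr1444 was read from these values and was given no test. Ventral calls were fewer without replicate 1 or without replicate 3, and the blocks were not traced there. By protein group, all 6 members of the group with Olfr1427 and all 4 members of the group Olfr1417 to Olfr1420 were ventral. The large group was mixed, with 6 dorsal, 9 ventral and 13 members that were not called. It holds Olfr1442 and Olfr1443, among the most ventral, and Olfr1444 and Olfr1451, among the most dorsal.

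**Figure D4:**
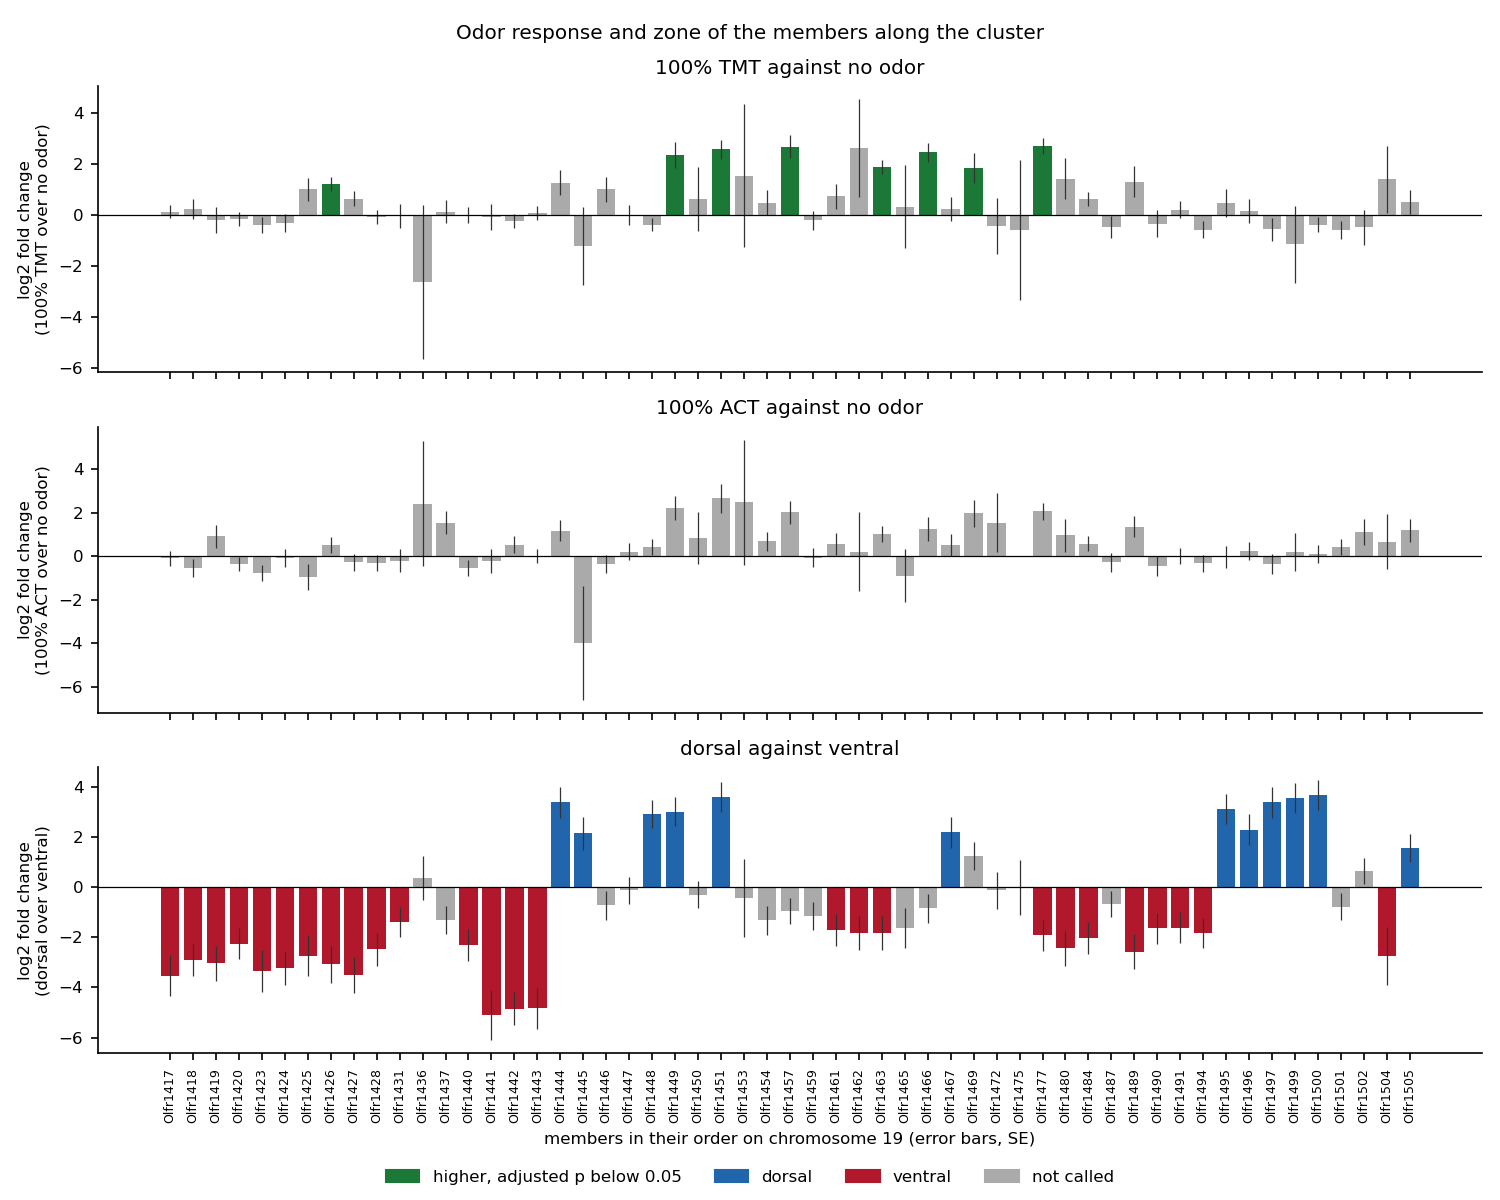
Log2 fold change (y axis, bars, with SE as error bars) of 100% TMT over no odor, 100% ACT over no odor and dorsal over ventral for the 55 placed members in chromosomal order. Green bars were called higher with odor, blue bars dorsal and red bars ventral, and gray bars were not called; Olfr1475 had no counts to fit at 100% ACT. Dorsal calls begin with Olfr1444, and 7 of the 8 members called at 100% TMT lie between Olfr1449 and Olfr1477.

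The members that 100% TMT enriched came from both zones. Olfr1451 and Olfr1449 were dorsal, and Olfr1477, Olfr1463 and Olfr1426 ventral, while Olfr1466, Olfr1457 and Olfr1469 were not called. In numbers, 2 of 12 dorsal, 3 of 27 ventral and 3 of 17 uncalled members were enriched. Over all zones these were 14.3% of members, beside 11.6% of all ORs, and the share of all ORs within each zone is not given here.

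The sequences before the annotated starts of Olfr1442, Olfr1443 and Olfr1444 are shown because these neighbours lie on either side of the change in zone. Each is the run of 200 bases before the first annotated base in GENCODE M21, read from GRCm38 on the plus strand at chr19:12670239-12670438, chr19:12677912-12678111 and chr19:12857083-12857282. Capitals mark matches, on either strand, to CCCNNGGG, a core of the Olf1/EBF site, or to TAATTA, a core of homeodomain sites; the motifs share no letters that would let them overlap. Both kinds of site are known from OR promoters.
Olfr1442: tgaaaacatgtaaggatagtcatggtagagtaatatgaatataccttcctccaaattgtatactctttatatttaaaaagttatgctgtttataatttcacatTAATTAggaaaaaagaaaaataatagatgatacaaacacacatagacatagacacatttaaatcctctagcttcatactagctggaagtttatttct
Olfr1443: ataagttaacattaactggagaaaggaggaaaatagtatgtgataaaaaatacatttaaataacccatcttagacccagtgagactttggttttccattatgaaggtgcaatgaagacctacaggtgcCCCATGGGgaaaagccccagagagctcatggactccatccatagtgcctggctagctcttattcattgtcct
Olfr1444: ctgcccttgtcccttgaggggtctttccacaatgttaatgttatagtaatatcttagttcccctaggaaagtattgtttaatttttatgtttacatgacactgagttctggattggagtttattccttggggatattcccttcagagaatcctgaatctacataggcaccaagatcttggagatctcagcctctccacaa

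Olfr1442 held the homeodomain core, Olfr1443 the Olf1/EBF core and Olfr1444 neither in this window. The homeodomain core was found in 11 of 51 members with such a window (21.6%) and in 19.8% of 1008 ORs. It occurred before 7 of 26 ventral members and 1 of 12 dorsal members. The Olf1/EBF core was found in 5 of 51 members (9.8%) and in 13.6% of all ORs, before 3 of 26 ventral and 1 of 12 dorsal members. Of the 8 members called at 100% TMT, Olfr1463 and Olfr1466 held both motifs and Olfr1426 the homeodomain core alone. These matches are descriptions of the letters in the window.

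Close relatives were compared within libraries. For each of the 8 members called at 100% TMT, the ratio to the member with the most similar protein was formed in each library, which gave 6 distinct pairs. The log2 ratio of Olfr1477 to Olfr1484 was 0.22, 0.69 and 0.31 in 100% TMT mice and -1.45, -1.18 and -2.34 in no odor mice. Olfr1484 itself had 198, 255 and 330 normalised counts with 100% TMT and 129, 103 and 297 with no odor (log2 fold change 0.62 ± 0.27, adjusted p 0.115). The ratio thus shifted by 2.06 on the log2 scale, without overlap between groups, and the exact two-sided permutation test gave p = 0.1, the smallest value that 3 against 3 mice allow (0.3 after adjustment over 6 pairs). Of the 50-base stretches of these genes, 11.1% in Olfr1477 and 12.1% in Olfr1484 are shared with another OR, so reads from those stretches do not tell the copies apart.

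Olfr1463 and Olfr1466 were both called, and the log2 ratio of Olfr1463 to Olfr1466 was 3, 2.71 and 2.43 in 100% TMT mice and 3.04, 3.23 and 3.51 in no odor mice (exact permutation p = 0.1, adjusted 0.3). Olfr1426 and Olfr1425, whose proteins share 94.2% of residues, had ratios that overlapped between groups, with a shift of 0.22 (exact permutation p = 0.7). Olfr1425 was not called (log2 fold change 1.01 ± 0.44, adjusted p 0.112). In the remaining 3 pairs, with Olfr1449, Olfr1451 and Olfr1457, the exact permutation p was 0.6 or 0.7. Each pair was chosen because a member of it was called in these libraries, and with 3 mice per group no pair could pass after adjustment, so these ratios are a description.

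Olfr1471 and Olfr1474, which the choice of names left out, lie in the same stretch of the chromosome. At 100% TMT their log2 fold changes were 2.33 ± 0.33 (adjusted p 2.02e-10) and 2.49 ± 0.29 (adjusted p 2.55e-15). At 1% ACT, where no member was called, they were 1.28 ± 0.37 (adjusted p 0.0336) and 2.01 ± 0.28 (adjusted p 8.71e-10). There Olfr1471 had 192, 42.9 and 46.3 normalised counts, against 31.3, 24.1 and 36.1 with no odor. Olfr1474 had 520, 135 and 287, against 67.4, 69.1 and 64.6. Litter 1 was the highest 1% ACT mouse in both, and fits without it are not given here. At 1% TMT the log2 fold changes of Olfr1471 and Olfr1474 were 2.13 ± 0.34 (adjusted p 2.42e-08) and 2.36 ± 0.26 (adjusted p 6.9e-17). With these neighbours included, the counts given here would be higher by 2 in each of these comparisons, which at 1% TMT would make 4 where 2 were counted. Beside them, 11.6% of all ORs were called higher at 100% TMT, 1.38% at 1% ACT and 4.69% at 1% TMT.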

How the data were processed

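Per the labels and the methods of the study, the authors aligned reads with STAR and estimated counts per gene with RSEM against an Ensembl annotation of GRCm38 with extended OR transcripts. The deposited tables hold these expected counts, rounded to whole numbers by the authors (0 values were not whole), for 1088 intact ORs (1087 in the zone table). Reads shared between near copies are apportioned by estimation, so counts of near copies depend on each other. Columns of the authors' own comparisons (fold changes, mean levels, p-values) were not used. The dorsal and ventral libraries are described as total RNA in the study's methods, which were followed where the labels' protocol differs. The 0.1% TMT library of replicate 1 was grouped by its stimulant label, which another label field contradicts.

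Members and gene lists were chosen with earlier results of these data known. Each comparison was fitted to the whole table with edgeR 4.0.16 in R 4.3.3 (TMM over ORs, glmQLFit with robust = TRUE, glmQLFTest, two-sided, no filter on low counts). P-values were adjusted by Benjamini-Hochberg over all ORs, with n = 3 per group throughout. Each p-value sets a difference against a spread estimated from these samples and moderated over all ORs. The replicate number entered as a block, as in the authors' code: for odor comparisons it is the litter of same-sex littermates (correlations of same-numbered deviations averaged 0.00219 to 0.125 over the 8 comparisons). The lowest, 0.00219, was at 100% TMT, where different numbers averaged -0.000932, so there the data show no pairing. For the zone libraries the correlation averaged -0.24, so the data do not pair them either. Concentrations were contrasted in the 9 libraries of one experiment, odors in 12 libraries with 6 litters. The SE is the log2 fold change over the square root of F. Ratios within libraries used a pseudocount of 0.5. Intervals for counts cover counting error only. Protein identity was computed from translated GENCODE M21 coding sequences, since the protein table named in the plan was not used here. Sequences were read from the RefSeq copy of GRCm38. The tests were tried on simulated counts. Alternatives were RLE or no scaling factor, filterByExpr, the likelihood ratio test, DESeq2 1.42.0, no replicate block, and each replicate left out.

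Named members are Olfr1427, in each odor comparison the called members (at most 10, or the member with the smallest p), the 5 most dorsal and 5 most ventral called members, the 3 highest per kb without odor, and at most 5 called members per contrast. Olfr1444 and Olfr1426 in the contrast of concentrations, Olfr1425, Olfr1487 and the 3 lowest members were named after their values were seen.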

Additional observations from a re-analysis of the deposited data

Results flagged for a closer look

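In 7 members the response to 100% TMT differed from that to 1% TMT by the test of the difference itself (100% minus 1%, log2 scale): 2.99 for Olfr1449, 2.42 for Olfr1451, 2.34 for Olfr1457, 1.85 for Olfr1444, 1.5 for Olfr1463, 1.44 for Olfr1477 and 0.93 for Olfr1426. All 3 litters entered each of these values. With 3 mice per group, no single mouse was tested for standing apart from its group.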

How the results depend on the processing

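Calls at 1% and 100% TMT and in the contrast between them varied by less than 1.5 times under all alternatives. Calls for ACT did not. At 100% ACT, 0 members became 1 with RLE scaling (1.79%, beside 0.919% of all ORs). The likelihood ratio test gave 5 (8.93%, beside 3.49%) and DESeq2 gave 1 (4.55% of those with an adjusted p, beside 3.69%). Leaving out a replicate gave 0 to 8 members, with 8 (14.3%, beside 7.54%) without replicate 1. At 1% ACT leaving out a replicate gave 0 to 1 (1.79%, beside 1.75% of all ORs). Between 100% and 1% ACT, 0 became 2 without a scaling factor, 5 with the likelihood ratio test, 4 with DESeq2 and 0 to 3 without a replicate. For ACT against TMT at 100% the range was 0 to 1, and for ventral members it was 9 to 28 against 27, where leaving out a replicate leaves 2 libraries per group (without replicate 1 or 3, 16.1% of members were ventral, beside 18.9% and 18.5% of all ORs). Without the replicate block, 9 members were called at 100% TMT, 2 at 1% TMT, 13 dorsal and 30 ventral, and no count moved by over 1.5 times. Counts given in this section without a share of all ORs do not set the members apart from other ORs. No scaling factor shifted the median OR by -0.60 in the zone comparison and by up to -0.24 in odor comparisons, and RLE by 0.26 in the zone comparison. Of 351 alternative values of named members, 331 kept direction and side of the threshold, 3 lost the call (Olfr1469 at 100% TMT), 7 gained it and 10 turned sign. All 10 were values of Olfr1427 near 0: -0.04 at 1% ACT without a scaling factor, 0.02 at 1% TMT with RLE and with DESeq2, and, over the left-out replicates, -0.16 to 0.02 at 0.1% ACT, -0.61 to 0.12 at 100% ACT, -0.07 to 0.23 at 0.01% TMT, -0.01 to 0.11 at 0.1% TMT and -0.30 to 0.24 at 1% TMT. The causes were not tested.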
